A study of Oryza sativa with 6 samples.

Results

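The nuclear genes of the photosynthetic light reactions were followed in rice panicles that overexpress the alpha-expansin OsEXPA7 and in wild-type panicles. The members were 35 loci chosen by identifier for their role: 12 light-harvesting proteins, 7 photosystem II subunits, 9 photosystem I subunits, 5 electron carriers and 2 ATP synthase subunits, out of 42189 loci in the deposited table. The choice was made with earlier results of these data known. All plants were of the cultivar Nipponbare and the labelled tissue was panicle. The overexpression group (OE, genotype field EXPA7_OE) and the wild-type group (WT, genotype field EXPA7) held 3 biological replicates each, and both carry the treatment label "natural". The labels used here give neither the promoter of the transgene, the number of transgenic lines, the panicle stage, the hour or light of harvest, nor whether plants were pooled, so the p-values speak only of the spread among these 6 libraries.

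In the light reactions, light-harvesting proteins bind chlorophyll and pass excitation energy to the photosystems. Photosystem II draws electrons from water, the cytochrome b6f complex and plastocyanin carry them on to photosystem I, and ferredoxin and ferredoxin-NADP reductase (FNR) deliver them to NADP. The proton gradient built on the way drives the chloroplast ATP synthase. Most subunits of the reaction centres themselves are encoded in the plastid genome, while the antenna proteins, many small photosystem subunits, plastocyanin, ferredoxin and FNR are nuclear genes. Green floral organs such as the hulls of a young spikelet carry chloroplasts. The table held 0 rows with a plastid-genome identifier, so the nuclear part alone is described.

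Expression was given as TPM, a length-scaled share of transcripts out of a fixed total in every library. Read depth is unknown. Libraries correlated at 0.991 to 0.993 within a group and at 0.948 to 0.953 between the groups (Pearson, log2(TPM + 1), across loci). The locus paired from general knowledge with OsEXPA7, LOC_Os03g60720, measured 5077, 4323 and 4946 TPM in OE and 964, 959 and 882 TPM in WT, every OE library above every WT library. No gene names stand beside the identifiers in the table. Markers of panicle or of other cell types were not examined, and single light-harvesting or photosystem loci are called by identifier and class. Since the tissue is bulk, fewer green cells and less RNA per green cell cannot be told apart. A harvest or library batch shared by a genotype cannot be told apart from the genotype either.

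Most antenna transcripts were lower in the OE panicles (8 of 11 tested), and the rest of the light-reaction apparatus was more mixed. Of the 35 members, 32 were tested, each with at least 1 TPM in all 6 libraries. Among them 16 fell, 2 rose and 14 stayed short of the threshold (limma on log2(TPM + 1), Benjamini-Hochberg adjusted p under 0.05 over 23395 loci). Over all tested loci 17.5% were lower and 25.3% were higher by the same rule. Because the members were chosen with earlier results known, the shares of all loci stand beside them as description and not as a test. With median-of-ratios scaling 16 members were lower and 1 higher, against 21.3% and 21.9% of all tested loci, and with quantile normalization 16 were lower and 1 higher, against 23.4% and 19.7%. The members are abundant, and abundant loci were called more often: among loci averaging at least 50 TPM, 26.2% were lower and 29.9% higher, and of the 25 members at that level 14 fell and 0 rose. The median log2 change of the 32 members was -0.24, beside 0.06 for all tested loci and 0.03 for loci averaging at least 50 TPM. With all libraries no tested member changed as much as 2-fold, the log2 changes lying between -0.81 and 0.41. Every OE library lay below every WT library for 16 members, where 22.5% of all tested loci did so, and above every WT library for 3, where 31.3% did.

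**Figure D1:**
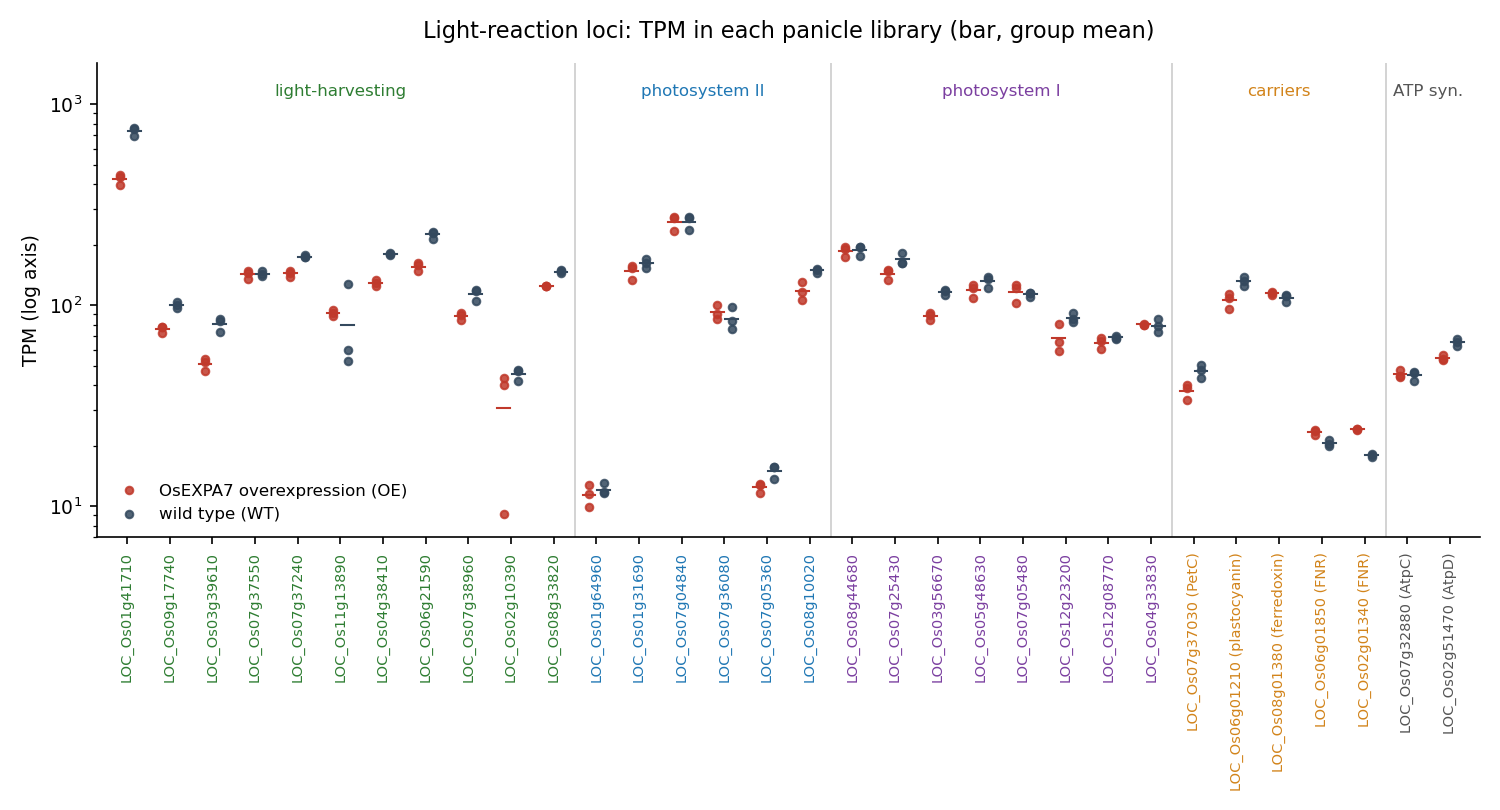
TPM (log axis) of the 32 tested loci in each of the 6 libraries, OE points left of WT points, with short bars for group means. The leading light-harvesting locus, LOC_Os01g41710, sits between 397 and 443 TPM in OE and between 698 and 759 TPM in WT, and a single library stands apart at LOC_Os11g13890 (WT) and at LOC_Os02g10390 (OE).

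Libraries of a group were close for nearly all members. The ratio of the highest to the lowest library had a median of 1.11 in OE and 1.10 in WT, and exceeded 1.5 at 1 member in each group. The second OE library was the lowest of its group at 25 of 32 members, with a median deviation of -0.08 on the log2 scale, whereas its median deviation over all tested loci was 0.03. The third WT library was the lowest of its group at 22 of 32 members, with a median deviation of -0.05, and likewise 0.03 over all tested loci. Without the second OE library the median log2 change of the members was -0.15, with 14 loci lower and 1 higher past the threshold.

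The light-harvesting proteins form the antenna of both photosystems. Of 12 such loci 11 were tested, and 8 fell, 0 rose and 3 stayed short of the threshold. Over all tested loci 17.5% were lower and 25.3% higher. The median log2 change of the antenna loci was -0.39. LOC_Os01g41710 was the most abundant of all members, with 443, 397 and 435 TPM in OE and 753, 759 and 698 TPM in WT. The groups lay well apart, the OE mean being 0.577 of the WT mean. The log2 change was -0.79 ± 0.05 (SE; limma adjusted p = 5.9e-06). Of all tested loci, 3.06% had a more negative change. By mean TPM this locus ranked 256 among all loci in OE and 105 in WT.

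The other antenna loci that fell did so by smaller steps, and at all of them the groups did not overlap. The same held at all 16 members that fell, so it adds little to the calls. Every OE library lay below every WT library at 22.5% of all tested loci. LOC_Os03g39610 averaged 51.1 ± 3.75 TPM in OE and 80.8 ± 6.35 TPM in WT (SD, n = 3 each), a log2 change of -0.65 ± 0.08 (SE). LOC_Os06g21590 averaged 156 ± 7.61 TPM in OE and 225 ± 9.28 TPM in WT (SD, n = 3 each), a log2 change of -0.53. LOC_Os04g38410 averaged 129 ± 4.56 TPM in OE and 181 ± 1.99 TPM in WT (SD, n = 3 each), a log2 change of -0.48. These loci had OE means between 0.633 and 0.714 of the WT means. At LOC_Os09g17740 the log2 change was -0.39, with means of 76.4 TPM in OE and 100.7 TPM in WT. At LOC_Os07g38960 it was -0.36, with means of 88.4 TPM in OE and 114 TPM in WT. At LOC_Os07g37240 it was -0.28, with means of 144 TPM in OE and 175 TPM in WT. The smallest fall that passed was at LOC_Os08g33820, with a log2 change of -0.23 and means of 124.8 TPM in OE and 147 TPM in WT. The adjusted p of the 8 loci that fell lay between 5.9e-06 and 0.00238 by limma.

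The remaining antenna loci either stayed short of the threshold or were not tested. LOC_Os07g37550 measured 145, 135 and 148 TPM in OE and 148, 144 and 139 TPM in WT. Its groups overlapped, and the log2 change was -0.0076 ± 0.05 (SE; limma adjusted p = 0.92). LOC_Os11g13890 measured 88.1, 91.8 and 95.0 TPM in OE and 128, 59.8 and 53.1 TPM in WT. The first WT library was 2.41 times the lowest one and lay above all OE libraries, while the other two WT libraries lay below them. With all libraries the log2 change was 0.30 ± 0.27 (SE; limma adjusted p = 0.391), and without the first WT library it was 0.69 with an adjusted p of 0.000218 by limma. LOC_Os02g10390 measured 39.9, 9.15 and 43.6 TPM in OE and 41.8, 46.9 and 47.6 TPM in WT. The second OE library alone was low, at less than any other value of an antenna locus above 0. The log2 change of -0.81 ± 0.47 (SE) did not pass the threshold (limma adjusted p = 0.195). Without the second OE library it was -0.12, with an adjusted p of 0.273 by limma. What set these single libraries apart at these loci was not tested. LOC_Os01g52240 was listed at 0 in all 6 libraries and was not tested. Antenna proteins form a family of similar sequence, and the sources used here do not give how reads shared between similar loci were assigned, so the split of TPM among them is uncertain.

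**Figure D2:**
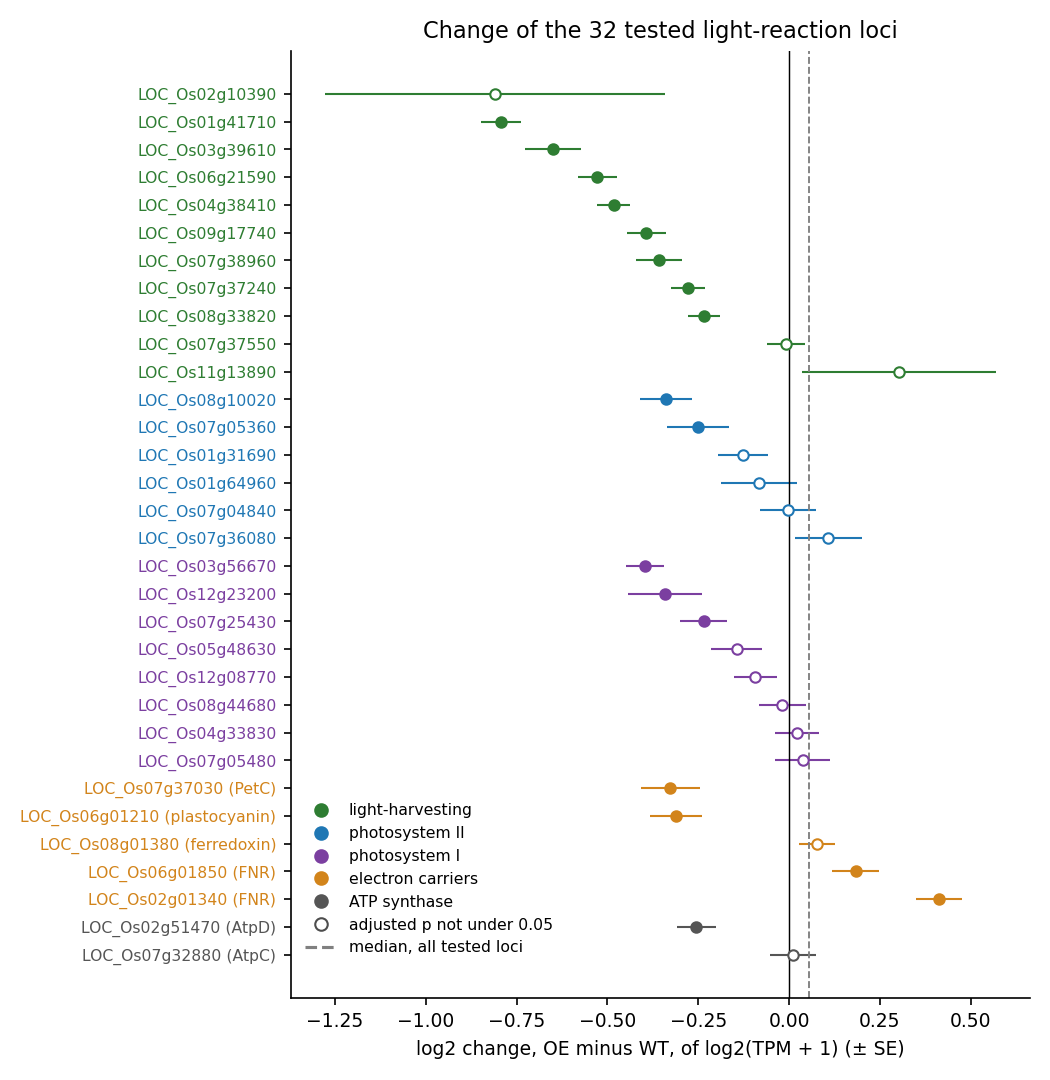
Log2 change (OE minus WT, log2(TPM + 1) scale) with its SE for the 32 tested loci, grouped by class and sorted within it; open circles did not pass the threshold, and the dashed line marks the median of all tested loci, 0.06. The 8 filled light-harvesting loci lie between -0.79 and -0.23, and the filled loci on the right are the 2 FNR loci.

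Summed over the class, the 12 light-harvesting loci held 1498, 1377 and 1504 TPM in OE and 2105, 2044 and 1936 TPM in WT. Each OE library lay below each WT library, and the OE mean was 0.720 of the WT mean. LOC_Os01g41710 alone made up 29.1% ± 0.392 of the antenna sum in OE and 36.3% ± 0.730 in WT (SD, n = 3 each). The other antenna loci together held 1055, 980 and 1069 TPM in OE and 1352, 1285 and 1238 TPM in WT, so the sum was lower in every OE library without the leading locus as well. No test was made on sums over the members.

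Photosystem II subunits as a class overlapped between the groups. Of 7 loci 6 were tested, and 2 fell, 0 rose and 4 showed no call. Over all tested loci 17.5% were lower and 25.3% higher, so counts this small do not set the class apart. The median log2 change of the class was -0.10. This median was -0.023 without the second OE library and -0.17 without the first. The class sum was 685, 589 and 654 TPM in OE and 693, 722 and 639 TPM in WT. LOC_Os07g04840, the most abundant of the class, measured 271, 234 and 274 TPM in OE and 271, 274 and 236 TPM in WT. The groups covered almost the same range, and the log2 change was -0.0028 ± 0.08 (SE; limma adjusted p = 0.981). The largest fall of the class was at LOC_Os08g10020, with 131, 107 and 117 TPM in OE and 149.7, 152 and 145 TPM in WT. Every OE library was below every WT library there, and the log2 change was -0.34 ± 0.07 (SE; limma adjusted p = 0.00471). LOC_Os07g05360, a low member, averaged 12.4 ± 0.688 TPM in OE and 14.99 ± 1.15 TPM in WT (SD, n = 3 each). Its log2 change of -0.25 passed narrowly (limma adjusted p = 0.0415). That call was lost when any library other than the first WT library was left out, with adjusted p of 0.0518 to 0.131 by limma in those 5 fits. LOC_Os07g36080 had the most positive change of the class, with 99.997, 90.9 and 85.8 TPM in OE and 83.3, 97.7 and 76.3 TPM in WT. Its groups overlapped, and the log2 change of 0.11 did not pass (limma adjusted p = 0.374). LOC_Os01g31690 and LOC_Os01g64960 had log2 changes of -0.13 and -0.08 that did not pass either, with OE means of 148 and 11.4 TPM and WT means of 162 and 12.1 TPM. The lowest locus of the class, LOC_Os08g02530, measured 0.219, 0.958 and 0 TPM in OE and 0, 1.36 and 0.867 TPM in WT and was below the filter.

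Photosystem I subunits were lower in sum by a small margin in the deposited values. Of 9 loci 8 were tested, and 3 fell, 0 rose and 5 showed no call. Over all tested loci 17.5% were lower and 25.3% higher. The median log2 change of the class was -0.12, and -0.062 without the second OE library. The class sum was 909, 804 and 892 TPM in OE and 955, 995 and 914 TPM in WT, with the highest OE library just under the lowest WT library. Median-of-ratios scaling divides the first OE library by 0.994 and the third WT library by 1.014, which undoes this order. LOC_Os03g56670 had the largest fall of the class, with 89.0, 84.6 and 91.5 TPM in OE and 118, 119.6 and 112 TPM in WT. The groups did not overlap, and the log2 change was -0.40 ± 0.05 (SE; limma adjusted p = 0.000357). LOC_Os12g23200 measured 80.7, 59.2 and 65.4 TPM in OE and 85.2, 91.1 and 82.8 TPM in WT. Its log2 change was -0.34 ± 0.10 (SE; limma adjusted p = 0.0248). This call was lost without the first or the second WT library and without the second or the third OE library, at adjusted p of 0.0538 to 0.0778 by limma. LOC_Os07g25430 averaged 144 ± 8.43 TPM in OE and 169 ± 11.3 TPM in WT (SD, n = 3 each), a log2 change of -0.24 with an adjusted p of 0.0164 by limma. Without the second WT library its adjusted p was 0.0638 by limma.

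The other photosystem I loci did not pass the threshold. LOC_Os08g44680, the most abundant of the class, measured 195.2, 173 and 190.2 TPM in OE and 195.3, 195.2 and 175 TPM in WT. The ranges nearly coincided, and the log2 change was -0.018 ± 0.06 (SE). LOC_Os07g05480 had the most positive change of the class, with 126, 103 and 122 TPM in OE and 110.4, 115 and 116 TPM in WT, a log2 change of 0.038 with overlapping groups. LOC_Os05g48630, LOC_Os12g08770 and LOC_Os04g33830 had log2 changes of -0.14, -0.09 and 0.02. The adjusted p of these 5 loci lay between 0.126 and 0.841 by limma. The signs of LOC_Os07g05480 and LOC_Os04g33830 turned negative with median-of-ratios scaling and with quantile normalization. LOC_Os09g30340 was listed at 0 in all 6 libraries.

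**Figure D3:**
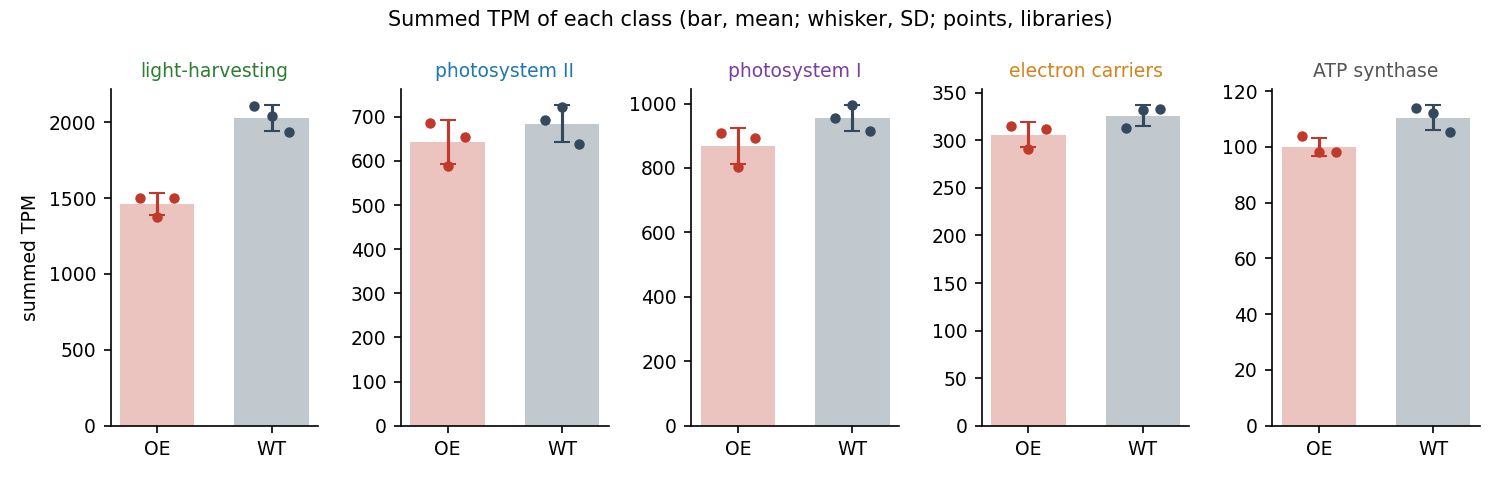
Summed TPM of the members of each class (bars, group means; whiskers, SD; points, the 3 libraries of each group; each panel has its own axis from 0). The light-harvesting sums are 1377 to 1504 TPM in OE and 1936 to 2105 TPM in WT, while the photosystem II and carrier sums overlap.

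Ratios between classes within a library do not depend on the scaling factor given to that library. The light-harvesting sum was 0.940, 0.989 and 0.973 times the sum of the photosystem subunits in OE and 1.28, 1.19 and 1.25 times in WT. Every OE library thus carried less antenna transcript per photosystem subunit transcript than any WT library. Without LOC_Os01g41710 the ratio was 0.662, 0.704 and 0.692 in OE and 0.820, 0.748 and 0.798 in WT, with the same order of the groups and a narrower gap. The photosystem I sum was 1.33, 1.37 and 1.36 times the photosystem II sum in OE and 1.38, 1.38 and 1.43 times in WT, so that the groups parted by a small margin. Together the 35 members held 0.338% ± 0.0190 of all TPM in OE and 0.410% ± 0.0154 in WT (SD, n = 3 each). Of that total the light-harvesting loci took 43.3% ± 0.502 in OE and 49.4% ± 0.882 in WT, and LOC_Os01g41710 alone 12.6% ± 0.0240 in OE and 17.9% ± 0.154 in WT (SD, n = 3 each).

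Among the 5 electron carriers, PetC and plastocyanin fell, the 2 FNR loci rose and ferredoxin did not pass the threshold. Over all tested loci 17.5% were lower and 25.3% higher. PetC (LOC_Os07g37030), the Rieske iron-sulfur protein of the cytochrome b6f complex, measured 40.1, 33.8 and 38.6 TPM in OE and 47.7, 50.4 and 43.6 TPM in WT. All OE libraries were below all WT libraries, and the log2 change was -0.33 ± 0.08 (SE; limma adjusted p = 0.0115). Plastocyanin (LOC_Os06g01210), the copper protein that feeds photosystem I, measured 114, 95.4 and 109 TPM in OE and 124, 132 and 138 TPM in WT. It fell with a log2 change of -0.31 ± 0.07 (SE; limma adjusted p = 0.00799), again without overlap.

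Past photosystem I, ferredoxin and the 2 FNR loci had higher means in OE than in WT, but only LOC_Os02g01340 passed under every setting. Ferredoxin (LOC_Os08g01380), the iron-sulfur protein that takes electrons from photosystem I, measured 113, 115 and 117 TPM in OE and 103, 111 and 112 TPM in WT. In the deposited values the OE libraries lay above the WT libraries by a narrow margin. The log2 change of 0.08 ± 0.05 (SE) did not pass the threshold (limma adjusted p = 0.247). Of all tested loci, 52.7% had a lower change. Median-of-ratios scaling divides the second OE library by 1.05 and the second WT library by 0.973, which undoes that order. With this scaling the log2 change of ferredoxin was 0.021 (limma adjusted p = 0.761). FNR, the flavoprotein that reduces NADP, was represented by 2 loci of similar level. Plants carry leaf-type and root-type FNR, and the files do not say which type these loci encode. LOC_Os02g01340 measured 24.0, 24.3 and 24.2 TPM in OE and 17.9, 18.2 and 17.6 TPM in WT. The groups were far apart for their spread, and the log2 change was 0.41 ± 0.06 (SE; limma adjusted p = 0.000792), the most positive of all tested members. Of all tested loci, 84.96% had a lower change, so a rise of this size was not rare in the table. LOC_Os06g01850 measured 23.9, 22.7 and 23.8 TPM in OE and 19.9, 20.4 and 21.4 TPM in WT. It rose with a log2 change of 0.18 ± 0.07 (SE; limma adjusted p = 0.0499), a call that passed under 4 of 13 other settings, whose adjusted p ran from 0.0435 to 0.42. LOC_Os06g01850 had a larger change than 65.6% of all tested loci, and it did not pass with either other scaling. It was lost without each library other than the third WT library, at adjusted p of 0.0542 to 0.151 by limma.

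**Figure D4:**
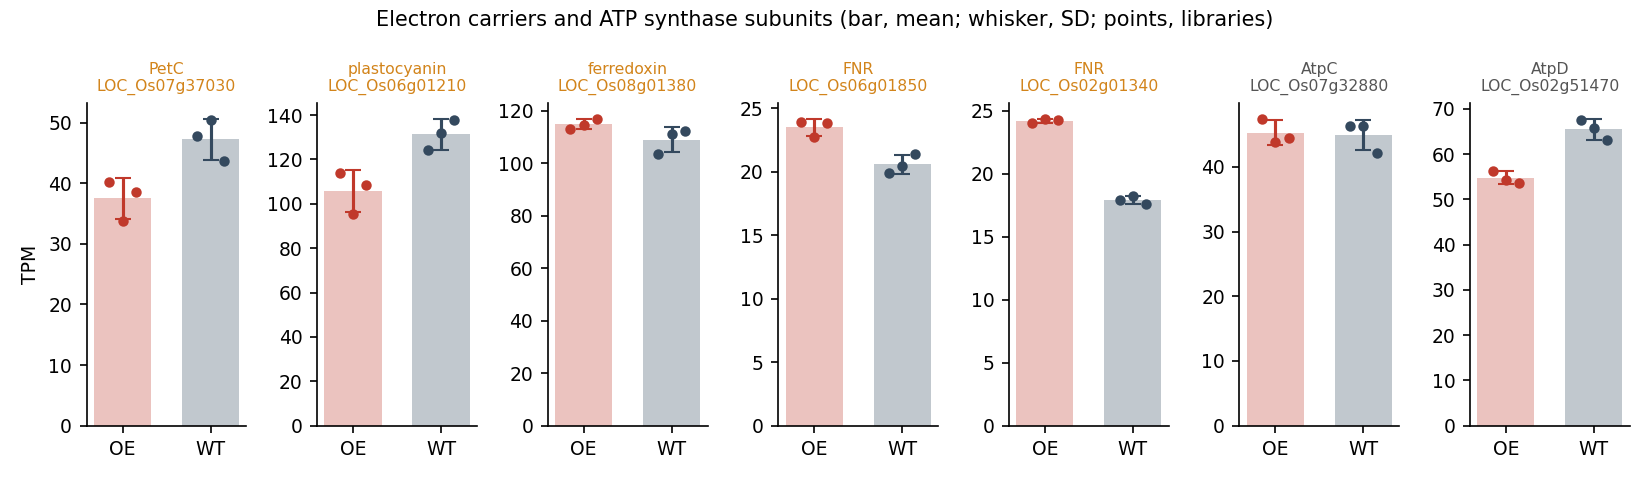
TPM of the 5 electron carrier loci and the 2 ATP synthase loci (bars, group means; whiskers, SD; points, libraries; each panel has its own axis from 0). PetC, plastocyanin and AtpD are lower in every OE library than in any WT library, and the FNR locus LOC_Os02g01340 is at 24.0 to 24.3 TPM in OE and 17.6 to 18.2 TPM in WT.

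Within each library the ratio of LOC_Os02g01340 to plastocyanin was 0.211, 0.255 and 0.223 in OE and 0.145, 0.138 and 0.127 in WT. The ratio of ferredoxin to plastocyanin was 0.994, 1.20 and 1.08 in OE and 0.834, 0.841 and 0.813 in WT. In both ratios every OE library exceeded every WT library. The single loci fixed this order, as plastocyanin was lower, and ferredoxin and LOC_Os02g01340 higher, in every OE library of the deposited values. These ratios were chosen after values were seen and are no separate support for a rise past photosystem I. They add only that the order holds whatever scaling factor a library is given. The ratio of the FNR loci, LOC_Os02g01340 over LOC_Os06g01850, was 1.00, 1.07 and 1.02 in OE and 0.901, 0.893 and 0.823 in WT.

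Of the ATP synthase loci, AtpD, the delta subunit of the chloroplast enzyme, fell, and AtpC, its gamma subunit, did not pass the threshold. By the same rule 17.5% of all tested loci were lower and 25.3% higher, so a single call does not set the class apart. AtpD (LOC_Os02g51470) measured 56.3, 54.3 and 53.5 TPM in OE and 67.6, 65.9 and 63.0 TPM in WT. The groups did not overlap, and the log2 change was -0.25 ± 0.05 (SE; limma adjusted p = 0.00502). AtpC (LOC_Os07g32880) measured 47.5, 43.9 and 44.5 TPM in OE and 46.3, 46.3 and 42.2 TPM in WT. Its groups overlapped, with a log2 change of 0.011 ± 0.06 (SE; limma adjusted p = 0.902), which turned negative with median-of-ratios scaling and with quantile normalization. The ratio of AtpC to AtpD was 0.843, 0.808 and 0.831 in OE and 0.685, 0.703 and 0.670 in WT.

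Of the 3 tested loci within 30 locus numbers of AtpC on chromosome 7, 1 fell. Since 17.5% of all tested loci were lower, a count this small does not set these neighbours apart. The neighbour LOC_Os07g32870 measured 2.37, 1.51 and 1.86 TPM in OE and 6.40, 8.24 and 6.55 TPM in WT, a log2 change of -1.47 ± 0.14 (SE; limma adjusted p = 5.3e-05). On the other side LOC_Os07g32890 and LOC_Os07g32900 had log2 changes of 0.19 and -0.14 and did not pass the threshold (limma adjusted p = 0.189 and 0.339). A wider stretch around AtpC, from LOC_Os07g32830 to LOC_Os07g33090, had drawn attention for its lower loci after their values were seen, so its bounds follow the outcome. Of its 15 tested loci 10 fell at least 2-fold, beside 1.57% of all tested loci, and AtpC was not among the 10. The functions of these neighbours are not annotated in the table. Of the 35 members 10 carry chromosome 7 identifiers, more than on any other chromosome, and the others are spread over 10 further chromosomes. By locus number AtpC was the only member inside the stretch. The spread over chromosomes was not compared with that of all loci, and a link to the stretch was not tested.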

How the data were processed

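RNA from rice panicles (3 OE and 3 WT libraries, grouped by their titles) was extracted with a plant total RNA kit and made into Illumina mRNA libraries, per the labels' protocols. The authors deposited TPM per locus, scaled to the same total in each library. Neither aligner, quantification tool nor annotation is given in the sources used here. Per the submitters' processing notes, which list the builds GRCm38 and mm10, the genome was mouse, against the rice form of the locus identifiers. TPM keeps no depth, so no counting interval is given. Of the 35 members, 0 matched the reference gene table, so no sequence or coordinate was used, and classes come from the member list. Members and lists were chosen with earlier results of these data known.

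Loci that reached 1 TPM in 3 or more libraries were tested as log2(TPM + 1) with limma 3.58.1 in R 4.3.3 (empirical Bayes, variance trend, two-sided), with Benjamini-Hochberg adjustment over all 23395. Fold changes on this scale understate the change of low loci. The fit was tested on simulated data. By rule, values per library were given for the highest, lowest, most raised and most lowered member of each large class, each carrier and ATP synthase subunit, members changed at least 2-fold or below the filter, OsEXPA7, and tested loci within 30 locus numbers of AtpC. Further members were added so that each is accounted for. Ratios within libraries, the level of 50 TPM, the bounds of the chromosome 7 stretch and LOC_Os12g23200 by library were chosen after values were seen. Alternatives were no filter, a filter at 5 TPM, a pseudocount of 0.1, median-of-ratios scaling, quantile normalization, no variance trend, a replicate block and leaving out each library.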

Additional observations from a re-analysis of the deposited data

How the results depend on the processing

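Of 18 members called, 14 passed in the same direction under all 13 alternatives, and none of the 18 changed sign. The exceptions were LOC_Os07g05360, LOC_Os07g25430, LOC_Os12g23200 and LOC_Os06g01850. The members lower in OE numbered 13 to 16 against 16, and those higher in OE 1 instead of 2 with median-of-ratios scaling, quantile normalization, no variance trend or the replicate block, and 1 to 2 when a library was left out. LOC_Os06g01850 was the locus lost under those 4 settings. The median log2 change of the members lay between -0.25 and -0.15 when a library was left out. Without a filter LOC_Os07g05360 and LOC_Os12g23200 had adjusted p of 0.0595 and 0.0602, and without the variance trend LOC_Os12g23200 had 0.0517 (limma). Of all calls 59.1% were higher in the values as the authors gave them, against 45.7% once quantile-normalized and 50.7% when scaled by the median of ratios. Both scalings left 16 members lower, and the median change of all tested loci was -0.021 when quantile-normalized and 0.0046 with the median of ratios, instead of 0.06. Sign changes occurred at 7 members, none of them called. With median-of-ratios scaling the log2 change was -0.019 at LOC_Os07g05480, -0.035 at LOC_Os04g33830 and -0.045 at AtpC. With quantile normalization it was 0.0077 at LOC_Os07g04840, -0.0085 at LOC_Os07g05480, -0.045 at LOC_Os04g33830 and -0.087 at AtpC. With a library left out it ran from -0.036 to 0.033 at LOC_Os07g37550, from -0.071 to 0.070 at LOC_Os07g04840, from -0.070 to 0.034 at LOC_Os08g44680, from -0.026 to 0.073 at LOC_Os04g33830, from -0.032 to 0.033 at AtpC, from -0.018 to 0.13 at LOC_Os07g05480 and from -0.16 to 0.010 at LOC_Os01g64960. LOC_Os02g10390 reached -1.12 without the first and -1.19 without the third OE library. The cause was not tested. The replicate numbers are shared by the groups, but deviations of same-numbered libraries correlated at 0.097, -0.0988 and -0.0685, so the numbers were not taken as pairs; the replicate block lost LOC_Os07g05360 (limma adjusted p = 0.0739) and LOC_Os06g01850 (limma adjusted p = 0.1). Unknown depth limits what can be said of the loci listed at 0.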
